A study of Sus scrofa with 14 samples.

Results

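S100A8, S100A9, S100A12 and LTF are 4 genes of the neutrophil's protein store that were read here in knee meniscus, a pad of fibrocartilage, from operated and sham-operated pigs. They were taken by name, as every non-control probe whose RefSeq transcript belonged to one of these genes, which gave 5 probes: 1 each for S100A8, S100A9 and S100A12, and 2 for LTF. They are 4 of the 2389 genes that could be named on the array, and all 5 probes were among the 38818 probes bright enough to be tested. The genes were proposed with the comparison of osteoarthritis and sham arrays already known. Their differences in that comparison are therefore given as a description. How many of their probes passed the fit over all probes is printed only beside the share of all probes that did, and supports nothing.

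The S100 proteins are small calcium-binding proteins. S100A8 and S100A9 join into calprotectin, the main protein of the neutrophil cytosol, which binds zinc and manganese, and S100A12 is a close relative from the same cells. Monocytes carry these proteins too, and stressed epithelium makes S100A8 and S100A9. Released from the cell they act as alarmins, danger signals read by Toll-like receptor 4 and by the receptor for advanced glycation end products, and calprotectin is known from inflamed joint fluid. LTF encodes lactoferrin, an iron-binding protein that neutrophils keep in their secondary granules and that glands secrete. In the Sscrofa11.1 gene order S100A8, S100A12 and S100A9 are direct neighbours in that order, whereas LTF lies on another chromosome near the chemokine receptor genes CCRL2 and CCR2.

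RNA came from 14 male Wuzhishan pigs aged 6 to 7 months, 7 per group, and each animal gave 1 single-colour array. In the OA group the anterior cruciate ligament, which stabilises the knee, had been operated on 24 weeks earlier, without word on how, and in the control group a sham operation lay equally far back; no other treatment is named. The labels name neither the side of the meniscus nor its zone, and whole tissue was pulverised, so fewer cells of a type and less RNA per cell cannot be told apart. The cartilage genes ACAN, the core protein of aggrecan, and DCN, decorin, were well above background on all 14 arrays, at mean signals of 71715 and 90681. COL1A1, COL1A2, COL2A1, COMP, FMOD and PRG4, also on the list of meniscus markers, were not analysed here. Of 12 neutrophil markers only FCGR3A and PR39 could be read, and the others, among them MPO, ELANE, CSF3R, CXCR2, ITGAM, CAMP, LCN2 and MMP8, were not analysed here. The label "neutrophil" thus rests on what the 4 genes are known for, not on a check against that cell's other markers.

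Arrays that share a scan time, called a scan run here, held 1 group each. Sham arrays lay in runs 1 and 2, OA 1 in run 3, OA 2 to OA 5 in run 4, and OA 6 and OA 7 in run 5, so run and group cannot be told apart. The OA arrays were also dimmer. Their raw 75th percentile of signal ran from 156 on OA 4 to 491 on OA 7, against 417 to 618 on the sham arrays, and 67.9% to 89.3% of their spots were well above background, against 89.7% to 95.2%. Values below are log2 signals minus that percentile of the same array, so a value of 0 means a signal equal to it. The percentile itself differed by a mean of -1.07 (log2, OA minus sham), and the scaling takes that difference out of every probe. The number of arrays limits the precision.

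S100A12 showed the largest difference between the groups of the 4 genes. On the sham arrays its probe (A_72_P441085) ranged from -3.46 on sham 5 through a median of -3.05 to -2.28 on sham 1. On the OA arrays it ranged from -2.59 on OA 7 through a median of -2.19 to 0.06 on OA 4. The groups overlapped: 5 of 7 OA arrays lay above the highest sham array, a share that 6.18% of all tested probes reached or passed, and all 7 lay above the sham mean, as for 9.24% of probes. OA 4 and OA 2 (-0.58) stood well above the others, OA 3 followed at -1.72, and OA 1, OA 5 and OA 6 lay close to the highest sham array (-2.30, -2.27 and -2.19). The group means were -2.92 ± 0.39 in sham and -1.66 ± 1.00 in OA (SD, n = 7), a difference of 1.27 ± 0.37 (SE) with a 95% interval of 0.49 to 2.05, or 2.41-fold.

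S100A9 had the same 2 highest OA arrays, OA 4 and OA 2, and the same lowest, OA 7, at a smaller difference. Its probe (A_72_P137861) lay between -3.94 and -3.29 in sham, with a median of -3.61, and between -3.71 and -1.58 in OA, with a median of -3.28. After OA 4 came OA 2 (-2.27) and OA 1 (-2.79), and OA 7 lay inside the sham range. The order in between differed, since OA 1 lay low among the OA arrays for S100A12, above OA 7 alone. Of the 7 OA arrays 4 lay above the highest sham array and 6 above the sham mean. The means were -3.68 ± 0.25 and -2.92 ± 0.76 (SD, n = 7), a difference of 0.76 ± 0.29 (SE; 95% interval 0.16 to 1.36), or 1.69-fold.

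S100A8, the partner of S100A9 in calprotectin, was widely scattered in OA, on both sides of the sham range. Its probe (A_72_P428729) gave -4.05 to -2.78 in sham, with a median of -3.48, and -4.39 to -0.92 in OA, with a median of -3.53. OA 4 stood far above the next OA array (OA 2, -2.74), while OA 1 (-4.28) and OA 3 (-4.39) lay below every sham array. The means were -3.50 ± 0.39 and -3.26 ± 1.17 (SD, n = 7), a difference of 0.24 ± 0.42 (SE; 95% interval -0.64 to 1.13). That direction rested on OA 4, without which the difference was -0.15.

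LTF did not go with the S100 genes. Its brighter probe (A_72_P088736, called probe 1) ranged from -2.57 to -1.69 in sham, with a median of -2.38, and from -3.36 to -1.53 in OA, with a median of -2.65. The lowest values came from OA 4, OA 5, OA 2 and OA 3, all of run 4 and all below the lowest sham array, and the highest from OA 1. The difference was -0.23 ± 0.27 (SE; 95% interval -0.79 to 0.34). It was 0.42 without scan run 4, 0.27 with the normexp background correction and -0.08 without OA 4 alone. The second probe (A_72_P657796, probe 2) lay from -5.10 to -4.08 in sham and from -4.95 to -3.81 in OA. It was not well above background on OA 2, OA 3 and OA 4, so its difference of -0.01 ± 0.21 rests in part on values at the background.

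**Figure D1:**
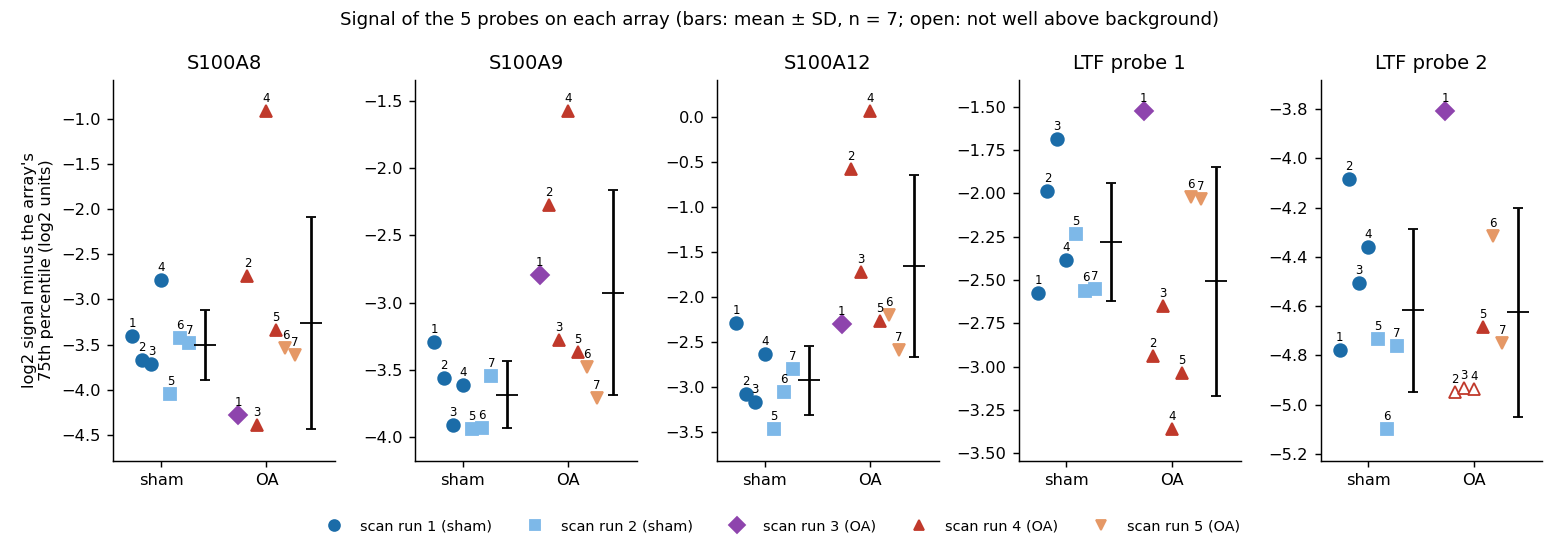
Each point is 1 array and each panel 1 probe; the vertical axis is the log2 signal relative to the array's 75th percentile, colours and shapes give the scan run, small numbers the replicate, black bars the mean ± SD (n = 7), and open symbols values not well above background. OA 4 and OA 2 lead S100A12 (0.06 and -0.58) and S100A9 (-1.58 and -2.27), and OA 4 leads S100A8 (-0.92). For LTF probe 1 every array of scan run 4, OA 2 to OA 5, lies below every sham array.

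The S100 probes had a wide spread over the OA arrays in common. The OA arrays lay in scan runs 3, 4 and 5, with raw 75th percentiles from 156 to 491. The sham arrays lay in runs 1 and 2, with percentiles from 417 to 618. Spread between animals therefore cannot be told apart from spread between runs or in array brightness. The SD over OA arrays was 3.02 times the sham SD for S100A8, 3.07 times for S100A9 and 2.59 times for S100A12. Among tested probes of like brightness (the same decile of mean signal) 96.8% had a smaller OA spread than S100A8, 94.98% a smaller one than S100A12 and 84.0% a smaller one than S100A9. In sham the corresponding shares were 56.0%, 57.7% and 14.4%, near or below the middle. LTF probe 1 had an OA SD of 0.66, 1.95 times its sham SD. That exceeded the OA SD of 81.5% of like probes, close to the share for S100A9. No group had an array that stood apart by Dixon's criterion in any of the 5 probes.

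No probe of the 4 genes passed an adjusted p of 0.05 in limma's fit over all probes, with Benjamini-Hochberg adjustment: 0 of 5, against 3.73% of all tested probes (2.89% higher and 0.848% lower in OA). At an unadjusted p under 0.05 the count was 2 of 5, against 19.6%. Of all tested probes 0.593% had a larger OA minus sham difference than S100A12, 3.78% a larger one than S100A9 and 22.0% a larger one than S100A8. Probes as bright as these had median differences near 0, at -0.05 for the decile that holds S100A12 and LTF probe 1 and -0.06 for the decile that holds S100A8 and S100A9. Since the genes were chosen on this comparison, nothing more is read from these counts.

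Before scaling, the signals of the S100 probes overlapped widely between the groups. S100A12 gave 49.5 to 123 arbitrary units in sham (median 68.3) and 45.9 to 162 in OA (median 81.9). Only OA 4 (162) and OA 2 (136) exceeded the brightest sham array, and the unscaled difference was 0.20 on the log2 scale. S100A9 gave 31.3 to 60.9 in sham and 19.6 to 52.3 in OA, with no OA array above the brightest sham array and an unscaled difference of -0.31. S100A8 gave 32.8 to 88.4 and 9.09 to 82.4, with a difference of -0.83. LTF probe 1 gave 80.9 to 146 and 15.2 to 120, with 5 of 7 OA arrays below the dimmest sham array and a difference of -1.30. The mean signals of the S100 probes stood at percentiles 31.8 (S100A8), 32.9 (S100A9) and 47.4 (S100A12) of tested probes. The scanner software's own error was 10.1% to 10.5% of the signal for S100A12 on every array, and reached 21.1% for S100A8 and 34.3% for LTF probe 2 on OA arrays.

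**Figure D2:**
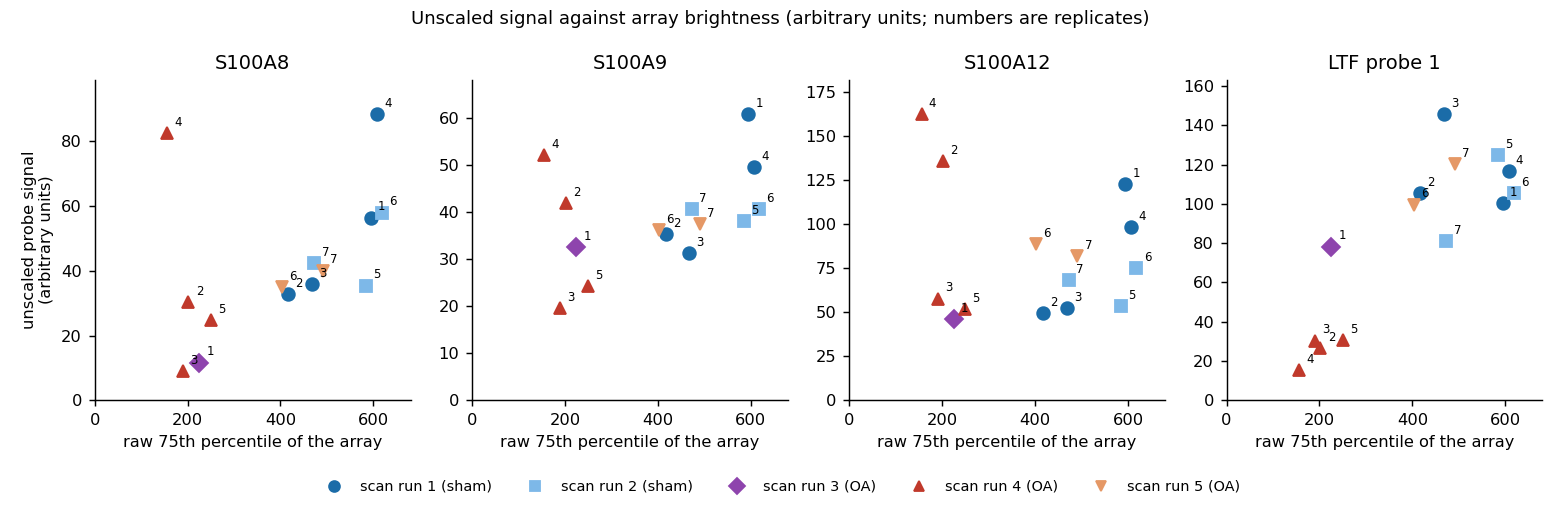
The horizontal axis is the raw 75th percentile of an array's signal and the vertical axis the unscaled signal of the probe, both in arbitrary units and starting at 0; each point is 1 array, coloured by scan run and numbered by replicate. OA 4, the dimmest array at 156, holds the brightest S100A12 signal (162) and the dimmest LTF signal (15.2).

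OA 4 was both the dimmest array and the one with the highest scaled value of S100A8, S100A9 and S100A12. With array brightness as a covariate in the fit the differences became 0.18 for S100A12, -0.19 for S100A9 and -0.41 for S100A8; because brightness and group move together, this fit cannot tell them apart. Without scan run 4, which holds OA 2 to OA 5, they were 0.57, 0.36 and -0.31. With only OA 6 and OA 7, the OA arrays closest to sham in brightness, they were 0.53, 0.089 and -0.07. S100A12 was positive in each of the 30 alternative fits, with a range of 0.18 to 1.56. Its 95% interval nevertheless held 0 with array brightness and without scan runs 3 and 4. S100A9 was positive in 29 of these fits and S100A8 in 26. All of them draw on the same arrays and on a comparison known when the genes were chosen, so these counts are a description only. By scan run, the OA mean minus the sham mean of S100A12 was 0.63 in run 3, 1.80 in run 4 and 0.53 in run 5, that of S100A9 0.89, 1.06 and 0.09, and that of S100A8 -0.77, 0.66 and -0.07. S100A12 thus lay above the sham mean in each OA run, while S100A8 did so in run 4 alone. Quantile normalization and the authors' table left the 3 differences almost as they were, at 1.25, 0.77 and 0.25 in both. The normexp background correction moved them to 1.00, 0.83 and 0.64, and the S100A8 interval was then 0.17 to 1.11. That fit called 18414 of 38818 probes, and the median difference of all its probes was 0.34.

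**Figure D3:**
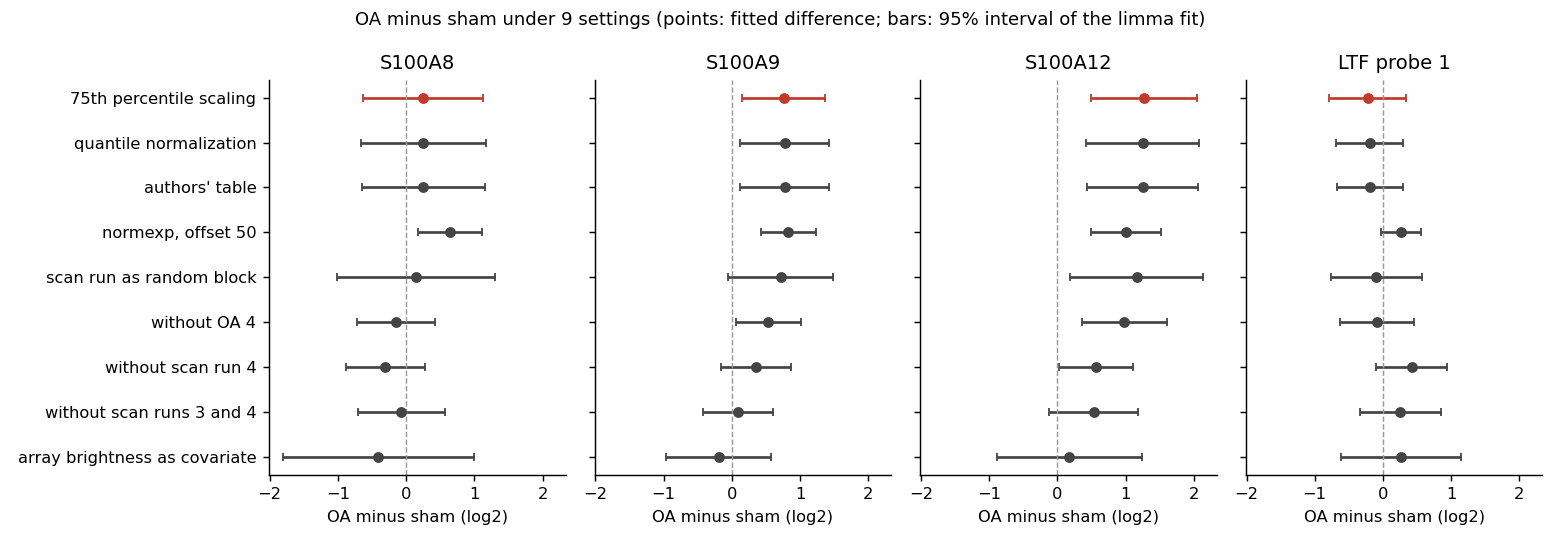
OA minus sham on the log2 scale for 4 probes (panels) under 9 settings (rows); points are fitted differences, bars 95% intervals of the limma fit, and red marks the main setting. The S100A12 point lies to the right of 0 in all 9, from 0.18 with array brightness as a covariate to 1.27 in the main setting, but its interval crosses 0 with array brightness (-0.88 to 1.24) and without scan runs 3 and 4 (-0.12 to 1.19), and S100A9 lies at 0.089 without scan runs 3 and 4.

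Differences between probes of the same array are free of the scaling by a percentile. The difference S100A9 minus S100A12 was -0.76 ± 0.22 on the sham arrays and -1.27 ± 0.42 on the OA arrays (log2; SD, n = 7), and 6 of 7 OA arrays lay below the lowest sham array. The difference S100A8 minus S100A12 went from -0.58 ± 0.30 in sham to -1.60 ± 0.67 in OA, with 4 of 7 OA arrays below the sham range. Both differences were thus lower in OA by more than 1 sham SD. The difference S100A8 minus S100A9 was 0.18 ± 0.37 in sham and -0.34 ± 0.74 in OA, with 3 of 7 OA arrays below the sham range. The difference S100A12 minus LTF probe 1 was -0.64 ± 0.64 in sham and 0.85 ± 1.56 in OA, with 4 of 7 OA arrays above the sham range. These differences show unequal change only, not which gene changed. How often other pairs of probes reach such counts of arrays outside the sham range was not computed.

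The genes were chosen with the group comparison known, not by their covariation within a group. The same array values enter both, and OA 4 and OA 2 led the OA values of S100A9 and S100A12. The relations in OA are therefore not independent of the choice. By Pearson's r, S100A9 and S100A12 were the closest pair in both groups; by Spearman's rho S100A8 and S100A12 were closer in sham. Pearson's r was 0.85 over the 7 sham arrays (exact permutation p = 0.019, two-sided, Benjamini-Hochberg adjusted p = 0.084 over 12 relations) and Spearman's rho 0.75 (exact p = 0.066, adjusted 0.20). Over the 7 OA arrays r was 0.92 (exact p = 0.0065, adjusted 0.079) and rho 0.75 (exact p = 0.066, adjusted 0.20). Without the 2 arrays farthest from the median of S100A9, r was 0.60 in sham and 0.29 in OA, so the relation in OA rests on OA 2 and OA 4. None of the 12 relations passed after adjustment, and at an unadjusted p under 0.05 the count for r was 4.

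S100A8 and S100A12 gave r = 0.70 in sham (exact permutation p = 0.079, adjusted 0.14) with rho = 0.93 (exact p = 0.0067, adjusted 0.081). In OA they gave r = 0.82 (exact p = 0.021, adjusted 0.084) with rho = 0.57 (exact p = 0.20, adjusted 0.30), and r = 0.76 without OA 3 and OA 4. S100A8 and S100A9 gave r = 0.78 in OA (exact p = 0.0375, adjusted 0.11; rho = 0.46, exact p = 0.30, adjusted 0.33) and 0.33 without the same 2 arrays; in sham r was 0.41 (exact p = 0.37, adjusted 0.39) and rho 0.50 (exact p = 0.27, adjusted 0.33). LTF probe 1 had a negative r with all 3 S100 genes in both groups, from -0.39 to -0.73 with adjusted p from 0.12 to 0.39, but with normexp 3 of these 6 values turned positive (0.30, 0.20 and 0.010). Scan runs hold at most 4 arrays, too few for a correlation within a run. Removing each run's mean over the 13 arrays that share a run left r = 0.95 for S100A9 with S100A12, 0.84 for S100A8 with S100A9 and 0.79 for S100A8 with S100A12.

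**Figure D4:**
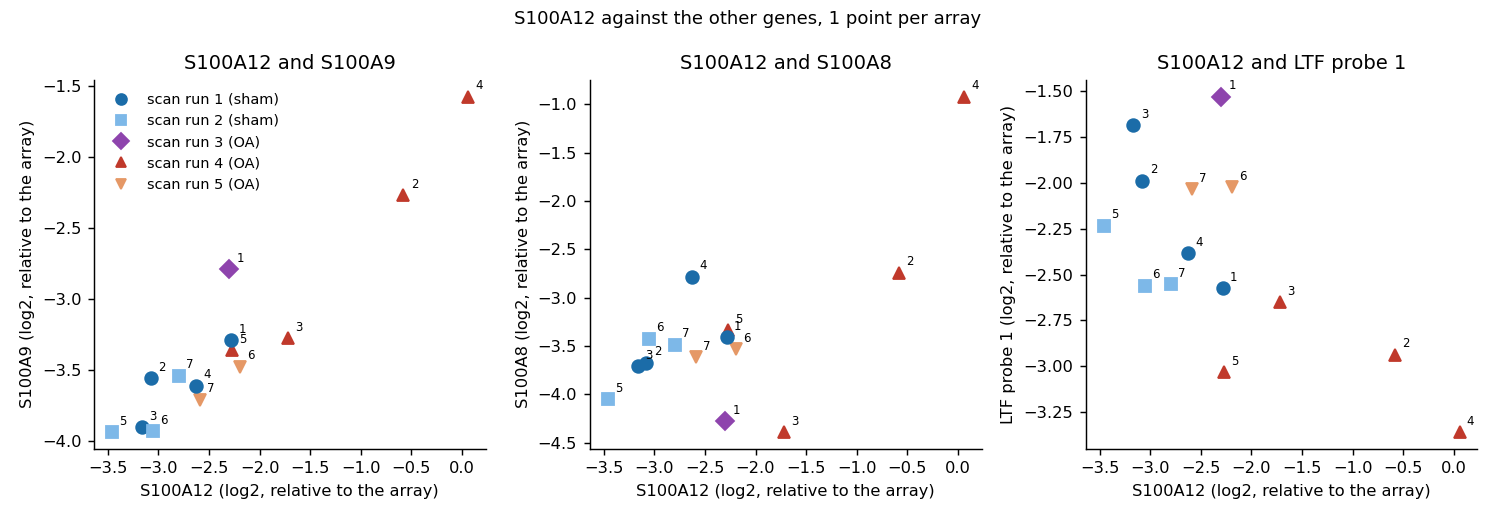
Each point is 1 array, with S100A12 on the horizontal axis and S100A9, S100A8 or LTF probe 1 on the vertical axis, all as log2 signals relative to the array's 75th percentile, coloured by scan run and numbered by replicate. S100A9 follows S100A12 in both groups (r = 0.85 in sham, 0.92 in OA), OA 1 and OA 3 lie low for S100A8, and LTF runs downward.

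Set against the whole array with each group's mean removed, no probe was more like S100A12 than S100A9. With each run's mean removed instead, over the 13 arrays that share a run, 0.0026% of probes were more like it. The rank leans on OA 2 and OA 4, since r within OA was 0.92 with them and 0.29 without. Over the 14 arrays, after each group's mean was removed, S100A9 had r = 0.91 with S100A12, rank 1 of 38808 other probes for S100A12, while S100A12 was rank 4 for S100A9. S100A8 was rank 28 for S100A12 (r = 0.81). The median r of all probes with S100A12 was -0.15, and 8 of 2256 named genes exceeded 0.8. The named genes next most like S100A12 were RBP5, a retinol-binding protein (r = 0.89), CDC25C, a phosphatase of entry into mitosis (0.86), CDKN3, a cell cycle phosphatase (0.85), and DLAT, a subunit of pyruvate dehydrogenase (0.83). For S100A9 they were RBP5 (0.93), S100A12, the ATP synthase subunit gene ATP5G1 (0.87), RAB14, of vesicle traffic (0.86), and COX5B, of cytochrome oxidase (0.84). For S100A8 they were CDC25C (0.88), CCL19, a chemokine of lymphoid tissue (0.84), S100A12 (0.81), glycerol kinase GK (0.80) and MDH1, malate dehydrogenase (0.79).

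LTF had a pattern shared by many genes. With LTF probe 1, 108 of 2256 named genes exceeded r = 0.8, led by OXT (0.95), TP23 (0.94), SREBF1, a regulator of lipid synthesis (0.93), MT3, a metallothionein (0.93), and KIR2DL1 (0.93). The median r of all probes with it was 0.19. Its r with S100A12 was -0.70, and 98.7% of probes had a higher one. Points of these correlations share their arrays and the arrays' brightness, and no p is given for them.

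Around these genes 17 lists of related genes held 112 tested genes other than the 4, of which 3 rose and 0 fell in OA (limma adjusted p), against 3.23% of all named genes in either direction. The median difference of the 112 was 0.10, and of all named genes 0.0034. CSF3, the growth factor that drives neutrophil production, was -4.66 to -3.76 in sham (median -4.45) and -4.14 to -2.87 in OA (median -3.21), with 5 of 7 OA arrays above the sham range. It rose by 0.90 ± 0.23 (SE; limma adjusted p = 0.037) at a dim mean signal of 24.8, and its other probe stood at -0.36. SLC11A1, a metal transporter of phagocyte vesicles, ranged from 1.13 to 1.83 in sham and from 1.83 to 2.43 in OA, so the groups met without overlapping (1.58% of probes had all OA arrays above all sham arrays). It rose by 0.60 ± 0.16 (adjusted p = 0.048), with its other probe at -0.03.

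EPCAM, an epithelial adhesion molecule, did not overlap either (-2.01 to -1.64 in sham, -1.44 to -1.25 in OA). It rose by 0.50 ± 0.13 (limma adjusted p = 0.043), and 8 of its 15 other probes shared the sign. With the scan run as a random block none of the 3 passed, at adjusted p = 0.21, 0.31 and 0.22. With the replicate number as a block none passed, at 0.060, 0.11 and 0.15. Over all 30 alternatives the limma adjusted p ran from 0.0012 to 0.99 for CSF3, 0.026 to 0.46 for SLC11A1 and 0.00080 to 0.50 for EPCAM. CSF3 passed only without sham 2, OA 1, OA 6 or OA 7 among the 14 fits that left out an array, SLC11A1 without OA 1 or OA 4, and EPCAM without OA 1. Without scan run 4 the differences of the 3 were 0.57, 0.58 and 0.50 (adjusted p = 0.40, 0.22 and 0.22).

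None of 13 alarmin receptor and signalling genes passed, with 6 positive and a median of -0.18. TLR4 and AGER, the receptors named above, stood at -0.18 ± 0.24 and 0.21 ± 0.41 (SE, log2), CD14, the co-receptor of TLR4, at -0.45 ± 0.24 with no OA array above the sham mean, and LBP, which loads lipid onto CD14, at 0.56 ± 0.22 with all 7 above it. RELA, the p65 subunit of nuclear factor kappa B, stood at -0.79 ± 0.24 (limma adjusted p = 0.080). Of 5 other S100 genes 4 were positive, S100A6 at 0.43 ± 0.21 and S100A11, the negative one, at -0.42 ± 0.24 (limma adjusted p = 0.27 and 0.36). Of 7 other alarmins 6 were positive, among them HMGB2, a chromatin protein, at 0.92 ± 0.26 (limma adjusted p = 0.058) and IL1A at 0.39 ± 0.15 (0.16).

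Other products of neutrophils were read in the same fit. Of 9 granule and antimicrobial genes 0 passed and 3 were positive, with a median of -0.18. LYZ, lysozyme, stood at 0.89 ± 0.68 and NPG4, a porcine protegrin, at 0.43 ± 0.23 (SE, log2; limma adjusted p = 0.50 and 0.32). PR39, a proline-rich antimicrobial peptide, stood at -0.10 ± 0.26 at a signal of 12.1, well above background on 11 of 14 arrays. PMAP-23, a myeloid cathelicidin, had 7 sham arrays and 0 OA arrays well above background (limma adjusted p = 0.14), too dim for a fold to be stated. The summed level of the granule list, in multiples of the array's 75th percentile, ran from 3.27 to 10.5 in sham and from 3.76 to 27.2 in OA, highest on OA 4, and LYZ supplied most of it there (2.84 above its sham mean on the log2 scale). Of the other 8 genes, 7 lay below their sham mean on OA 4, from -0.08 for MMP9, a gelatinase, to -2.03 for DEFB1, a defensin. That count includes dim probes, and OA 4 was the dimmest array. BPI, PGLYRP1, PR39 and PMAP-36 were well above background on only 4, 5, 4 and 5 of 7 OA arrays, and PMAP-23 on 0. The part of these genes in the S100 values was not tested.

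Of 6 surface genes 5 were positive and 0 passed. FCGR2B, an Fc receptor, stood at 0.72 ± 0.23 (limma adjusted p = 0.091) and FCGR3A at 0.39 ± 0.36. Among 4 NADPH oxidase genes GP91-PHOX and CYBA, the membrane subunits, stood at 0.48 ± 0.36 and 0.45 ± 0.23. The 1 other probe of GP91-PHOX had the opposite sign. NCF1, a cytosolic subunit, stood at -0.45 ± 0.35. It was dim (mean signal 11.7) and well above background on only 4 of 7 OA arrays. Of the 14 recruitment genes 9 were positive, CSF3 among them. IL6 stood at 1.26 ± 0.50 (limma adjusted p = 0.17), whereas CXCL8 and AMCF-II, chemokines that draw neutrophils, stood at -0.02 ± 0.69 and 0.00 ± 0.75. ALOX5AP, needed for leukotriene synthesis and the 1 gene of that list, stood at 0.61 ± 0.24 (limma adjusted p = 0.18), with both other probes of the opposite sign. Of the 10 iron genes, TFRC, the transferrin receptor, stood at -0.76 ± 0.42 and FTH1, ferritin heavy chain, at 0.34 ± 0.15.

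Markers of other cells were read beside these genes, among them monocytes, which carry the S100 proteins, and epithelium. None of 11 genes listed under monocytes and macrophages passed (8 positive, median 0.08). Of these CCR2 stood at 0.40 ± 0.27 and CD4, at a mean signal of 26.2, at 0.24 ± 0.21 (SE, log2). How far the 11 genes are particular to those cells was not tested. The summed level of the 11 genes, in multiples of the array's 75th percentile, was 23.8 to 92.9 in sham and 38.2 to 101 in OA. It was highest on OA 2, the array second to OA 4 for each S100 gene. On OA 2 CCL2, a chemokine for monocytes, lay 1.78 above its sham mean (log2), AIF1 1.47 and C1QA, a complement subunit, 1.31. Of the 11 genes only SPI1 (-1.15, well above background on only 3 of 7 OA arrays) and CD4 (-0.03) lay below their sham means on OA 2. CD14, a fixed marker outside that list, also lay below its own there (-0.90). On OA 4 CCL2, AIF1 and C1QA stood at 1.01, 0.51 and -1.39. The summed level of CD14, CD163 and AIF1, the 3 of 7 fixed markers that could be read, was 10.97 to 62.7 in sham and 27.4 to 56.6 in OA, highest on OA 7. FCGR3A and PR39 together gave 5.54 to 25.5 and 8.97 to 28.3, highest on OA 2. That sum is FCGR3A almost alone, an Fc receptor that macrophages and NK cells carry too, since PR39 had a mean of -4.87 in sham. Of 4 epithelial genes all were positive and EPCAM alone passed. The part of these cells in the S100 values was not tested. Of 3 mast cell genes KIT and FCER1G stood at 0.48 ± 0.41 and 0.26 ± 0.29, of 11 T and NK cell genes IL7R at 0.56 ± 0.21 and CD3D at -0.39 ± 0.33, and of 2 B cell genes CD79A at 0.40 ± 0.34. CD3D was dim (mean signal 11.6) and well above background on only 4 of 7 OA arrays. Of 2 red cell genes HBE1 stood at 0.15 ± 0.20 and EPOR at -0.37 ± 0.20, of 4 fibrochondrocyte genes SOX9 at -0.43 ± 0.46 and HAPLN1 at -0.31 ± 0.45, and of 6 synovial lining genes CLU at -1.07 ± 0.60 and CLIC5 at 0.21 ± 0.15. EPOR and HAPLN1 each had 1 other probe, of the opposite sign. None of the 6 groups from mast cells to synovial lining held a gene past the threshold (limma adjusted p).

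**Figure D5:**
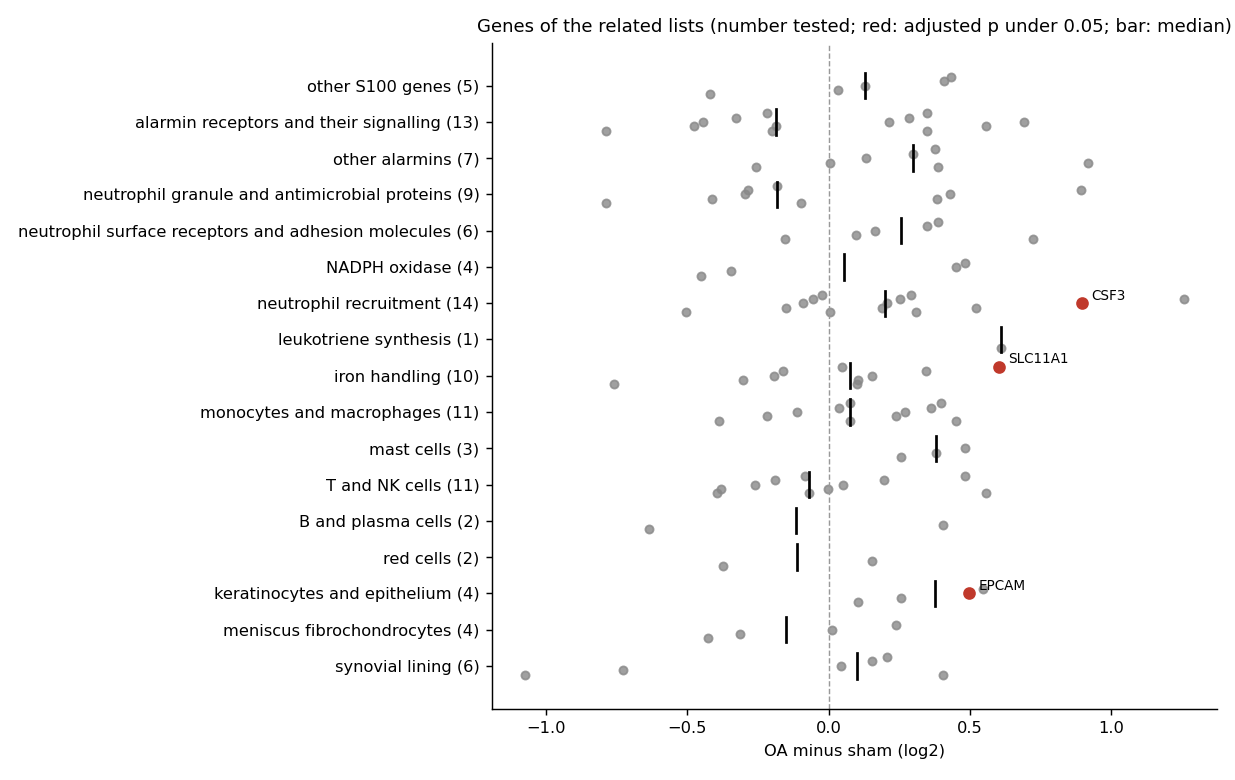
Each point is the OA minus sham difference (log2) of 1 gene, in rows by list with the number of genes tested; red points have a limma adjusted p under 0.05 and black bars are list medians. CSF3 (0.90), SLC11A1 (0.60) and EPCAM (0.50) are the called genes, and the medians of the granule and antimicrobial genes (-0.18) and the surface genes (0.26) lie on either side of 0.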

How the data were processed

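The authors deposited 1 scanner file per array with spot intensity values, made with Agilent Feature Extraction 11.0.1.1 per the file headers, which subtracted background and removed spatial trends but did not normalize between arrays. Per the labels' protocols, frozen tissue was crushed, RNA taken up in TRIzol, and the amplified RNA labelled with Cy3. The authors' deposited table of log2 values followed each array's signal (Spearman rho 0.994 to 1.00 across probes) with a median of 6.00 on every array, so it was taken as quantile-normalized, neither centred by gene nor turned in direction; the steps behind it were not stated.

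Control spots were left out, 82 outlier spots were set missing, spots of a probe were averaged, and log2 signals were scaled by the array's 75th percentile. Probes that at least 7 of 14 arrays showed well above background were compared with limma 3.58.1 in R 4.3.3 (two-sided, Benjamini-Hochberg, threshold 0.05). Arrays are separate animals per the series description. Accessions were matched without version to the RefSeq genes of Sscrofa11.1 (5461 of 5779 probes with one); the array's own build is not given, so no coordinates are printed. The brightest probe stood for a gene. Exact permutations used Python 3.11.15 with NumPy 2.4.6. The script was tested on simulated data. The genes, the 17 lists and the tests were chosen with earlier results of these data known. Named were all probes of the 4 genes, the called genes of each list or otherwise its 2 with the smallest p, and the 5 named genes most like each; other genes were chosen after their values were seen. The normexp alternative used median spot signals, as the files hold no mean ones. Some genes that the naming rule or the gene order would include are not reported here.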

Additional observations from a re-analysis of the deposited data

How the results depend on the processing

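Counts are given as all probes, then probes of the 4 genes, then list genes (1449, 0 and 3 in the main fit of 38818 probes). They were 2245, 0 and 5 with quantile normalization, 2256, 0 and 5 with the authors' table, and 18414, 4 and 41 with normexp (offset 50). With no filter 2551 probes passed, and with array weights 1 probe of the 4 genes. With the replicate number as a block they were 335, 0 and 0; the numbers pair no animals, since same-numbered arrays deviated with correlations of -0.19 to 0.27. The scan run as a random block gave 18, 0 and 0, and the scan day 148, 0 and 0. Without scan run 3 (OA 1) they were 2710, 1 and 6, without run 4 236, 0 and 0, and without run 5 2555, 2 and 3. Leaving out 1 array gave 730 to 2710, 0 to 1 (S100A12 without OA 1 or OA 7) and 0 to 6; the probe count moved by over 1.5 times without sham 1 (730), 2 (909), 3 (932) or 6 (827), or OA 1 (2710), 2 (796), 3 (732) or 5 (951). Chosen after seeing the data, leaving out scan runs 3 and 4 gave 195, 0 and 1, and array brightness as a covariate 4, 0 and 0. The share of calls that were higher in OA was 77.3%, and 63.9% with median scaling, 66.9% in the authors' table, 95.8% with normexp and 94.2% with a filter on all arrays; the majority turned without OA 1, the 1 array of run 3 (48.2%), and without run 5 (46.2%).

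Leaving out 1 array moved S100A12 between 0.98 and 1.42, S100A9 between 0.53 and 0.89, S100A8 between -0.15 and 0.43, and LTF between -0.39 and -0.08 (probe 1) and -0.14 and 0.08 (probe 2). S100A9 stood at 0.089 without scan runs 3 and 4 and at -0.19 with array brightness, S100A12 at 0.18 with array brightness, LTF probe 1 at 0.42 without run 4, and LTF probe 2 at 0.73 with normexp. Of the 12 correlations 0 passed, 1 with quantile normalization and 1 in the authors' table (both S100A9 with S100A12 in OA), and 3 with normexp (all among the S100 genes in OA), where LTF turned to 0.30 with S100A9 in sham, 0.20 with S100A9 in OA and 0.010 with S100A12 in OA. The cause was not tested. Signals this close to the background limit LTF probe 2 most.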

Other observations

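Near LTF in the Sscrofa11.1 gene order lie the leukocyte chemokine receptor genes CCR2 and CCRL2, both well above background on all 14 arrays. CCR2, the receptor of monocytes for CCL2, stood at 0.40 ± 0.27 (SE; log2, OA minus sham) and CCRL2, an atypical receptor, at 0.11 ± 0.26, and neither passed (limma adjusted p = 0.43 and 0.86). LRRC2, on the other side, stood at -0.71 ± 0.49 (limma adjusted p = 0.45) and was well above background on 10 of 14 arrays.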
